A study of Mus musculus with 10 samples.

Results

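Cytosolic ribosomal protein genes were followed in RNA-seq counts of sorted mouse microglia, the resident macrophages of the brain. The members were the protein-coding genes whose symbol is Rpl or Rps plus a number, with an optional a, x, y or l and an optional further number, together with Rplp0, Rplp1, Rplp2 and Rpsa. Of 83 such genes, 82 reached 1 CPM (counts scaled to a common library total) in at least 1 of the 10 libraries and were kept, of 49315 genes in the tables. Rpl10l was left out, with no library above 0.136 CPM. The members divide into 50 genes of the large and 32 of the small ribosomal subunit.

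All cells came from the brain of wild-type C57BL/6 mice and were sorted by the presence or absence of surface CD11c, the integrin alpha X chain. The 4 groups were CD11c+ and CD11c- cells at postnatal day 5 (P5, 3 libraries each) and CD11c+ and CD11c- cells at 9 months (2 libraries each). Libraries at 9 months were made with the SMART-Seq v4 Ultra Low Input kit and those at P5 are described only as standard Illumina libraries, so age and library preparation cannot be told apart. Nothing in the labels ties replicates to separate animals. P-values therefore reflect only how far these libraries scatter, and that scatter may be technical.

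A cytosolic ribosome is built from a small subunit, which reads the messenger RNA, and a large subunit, which joins the amino acids. Each of the core proteins is present in 1 copy per ribosome, apart from the stalk proteins Rplp1 and Rplp2, and their messages are made at high level in all cells. In mammals these messages begin with a C followed by a run of pyrimidines (C and T in the DNA), the 5′ terminal oligopyrimidine or TOP motif, through which mTOR signalling and the protein Larp1 control their translation and stability.

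Start sites are shown for the 4 members with the lowest and the 4 with the highest CD11c+ to CD11c- fold change at 9 months, among those whose RefSeq start lay within 20 bases of the GENCODE start. Each line gives 15 bases on either side of the RefSeq start on the gene's own strand, 5′ to 3′, in build GRCm38.p6. Capitals mark the longest run of C and T that begins with C, where it had 5 or more bases. The first set had the lowest fold changes.
Rpl3l, chr17:24727811-24727840, plus strand: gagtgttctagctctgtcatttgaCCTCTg
Rps27l, chr9:66946071-66946100, plus strand: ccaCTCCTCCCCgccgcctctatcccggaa
Rpl31, chr1:39367836-39367865, plus strand: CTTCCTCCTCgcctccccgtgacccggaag
Rps21, chr2:180257364-180257393, plus strand: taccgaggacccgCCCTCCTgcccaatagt
The second set had the highest fold changes.
Rpl10a, chr17:28328550-28328579, plus strand: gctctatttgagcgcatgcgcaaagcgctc
Rpl13a, chr7:45128731-45128760, minus strand: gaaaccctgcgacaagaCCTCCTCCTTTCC
Rpl4, chr9:64173372-64173401, plus strand: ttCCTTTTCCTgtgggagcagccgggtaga
Rpl7l1, chr17:46782642-46782671, minus strand: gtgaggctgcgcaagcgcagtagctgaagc
Marked runs occurred in both sets: all 4 windows of the first set and 2 of the second held one. RefSeq promoters were matched for 62 of the 82 members, and 24 of these (38.7%) had a run of at least 8 bases in the window, against 9.09% of the 27025 genes in the RefSeq table. Only 25 of the 62 starts lay within 20 bases of the GENCODE start, and 9 of these (36.0%) had such a run. Over all 62, the median 9-month fold change (log2, CD11c+ over CD11c-) was -0.77 with such a run and -0.74 in the 38 members without. Windows further from the GENCODE start may miss the start in use, which limits this comparison. CCGGAAG, the core letters of ETS family sites, stood on either strand of the 300-base promoter in 40.3% of the members and 9.12% of all genes, and the median fold changes with and without it were also -0.77 and -0.74. AAGATGGC, part of the YY1 site, was found in 8.06% of the members and 2.88% of all genes.

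Totals per library were 11892082 to 25483573 counts, apart from P5 CD11c+ replicate 2 with 2619610. In that library 23033 genes reached 1 CPM, where each of the remaining 9 had 12762 to 14735. Over the 82 members, log2 levels of the other libraries of one age correlated at 0.949 to 0.997, whereas replicate 2 correlated with libraries of its age at 0.535 to 0.609. Markers of microglia were detected in all groups, but the 9-month CD11c- libraries also carried markers of other myeloid cells. Neutrophil and precursor markers summed to 123113 and 172347 CPM there, against 1281 and 2068 CPM in 9-month CD11c+ cells. Homeostatic microglial genes summed to 43519 and 43978 CPM in those CD11c- libraries and to 118851 and 125208 CPM in the CD11c+ libraries. In bulk samples, fewer cells of a type and less RNA per cell cannot be told apart.

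Ribosomal protein genes held a larger share of the counts at P5 than at 9 months. At P5 the share was 2.96%, 6.88% and 3.51% in the CD11c+ libraries, of which 6.88% was replicate 2, and 3.14%, 2.87% and 2.96% in the CD11c- libraries. At 9 months it was 1.17% and 1.27% in CD11c+ cells and 1.44% and 1.499% in CD11c- cells. The P5 subsets overlapped, and at 9 months both CD11c+ libraries lay below both CD11c- libraries. The 13 proteins encoded in mitochondrial DNA took 7.15% to 28.0% of the counts in P5 CD11c- libraries and 0.77% to 2.79% in P5 CD11c+ libraries. With those counts left out, the P5 CD11c- mean rose from 2.99% ± 0.14 (SD, n = 3) to 3.70%. The single P5 libraries were then at 3.38%, 3.62% and 4.11% in CD11c- and 3.03%, 6.93% and 3.61% in CD11c+ cells, which still overlapped. Counts on 275 named ribosomal protein pseudogenes amounted to 1.67 to 2.93 per 100 counts on the members. How reads that map to a gene and its pseudogenes were handled is not given in the sources used here, so the level of each member is uncertain by what its copies took.

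Large-subunit genes held more counts than small-subunit genes in all 10 libraries. The sums run over 50 large- and 32 small-subunit genes, so their ratio does not compare levels per gene. The ratio of large to small was 1.35, 1.47 and 1.34 in P5 CD11c+ cells, 1.35, 1.33 and 1.31 in P5 CD11c- cells, 1.56 and 1.45 in 9-month CD11c+ cells and 1.31 and 1.25 in 9-month CD11c- cells. The 9-month subsets did not overlap, and the P5 subsets did. No test was made of these scores over members.

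**Figure D1:**
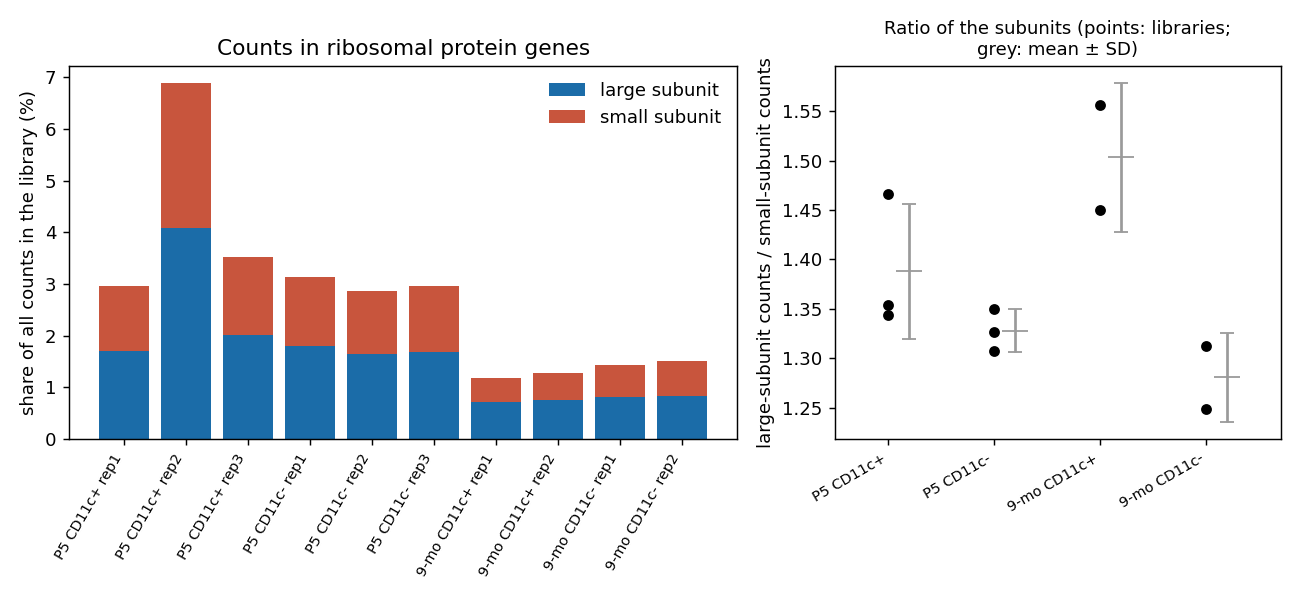
Left, share of each library's counts in large-subunit (blue) and small-subunit (red) ribosomal protein genes, in percent, for the 10 libraries. Right, large-subunit counts divided by small-subunit counts, with 1 point per library and the group mean ± SD in grey; the axis does not start at 0. The 9-month libraries sit between 1.17% and 1.499% and P5 CD11c+ replicate 2 at 6.88%.

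Levels per length differed widely between members. As CPM per kilobase of gene model (RPKM, averaged over the 10 libraries), the highest large-subunit genes were Rplp1 at 1651, Rpl37a at 1003 and Rpl36 at 514, and the highest small-subunit genes Rps12 at 1205, Rps24 at 890 and Rps26 at 562. All 6 were 3.31- to 37.3-fold higher in P5 CD11c+ replicate 2 than in the mean of replicates 1 and 3, so these means lean on that library. Lowest were the divergent copies Rpl3l (1.22), Rpl39l (1.84) and Rpl7l1 (32.1) in the large subunit, and Rps15a (37.2), Rps19 (52.1) and Rps27l (59.5) in the small subunit. The lengths are those of the deposited tables and include every annotated exon, so genes with long alternative exons such as Rps15a come out low.

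No ribosomal protein gene passed the test between CD11c+ and CD11c- cells at P5. In the quasi-likelihood F-test of edgeR, 0 of 82 members were higher and 0 lower at an adjusted p of 0.05, beside 0.299% and 0% of all genes tested. None passed an unadjusted p of 0.05 either, and DESeq2 called 0. The median fold change of the members was 0.07 (log2, CD11c+ over CD11c-), against 0.06 over all 15410 genes. In CPM, 6 members were higher and 1 lower in CD11c+ cells without overlap, beside 11.7% and 3.64% of all genes.

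The positive P5 fold changes with the smallest p followed P5 CD11c+ replicate 2. Rpl37a, a zinc-binding protein of the large subunit, stood at 261, 11290 and 345 CPM in CD11c+ libraries 1 to 3 and at 319, 305 and 327 CPM in CD11c- libraries. Its fold change was 3.47 ± 1.48 (SE, edgeR adjusted p = 0.731) with that library and -0.24 without it. Rps24, a small-subunit protein needed for making the subunit, stood at 447, 4573 and 566 CPM against 516, 481 and 518 CPM. Only replicate 2 was high for both genes, and the other CD11c+ libraries lay within or beside the CD11c- range. Rpl36a (1.90) and Rpl36 (1.29) had positive fold changes of the same make, and turned to -0.38 and -0.0050 without it. Rpl34 (-0.56), Rps23 (-0.51), Rpl30 (-0.50) and Rpl9 (-0.41) had the smallest p among negative fold changes, each with an edgeR adjusted p of 0.80. Rpl9 was the 1 member lower without overlap, at 326, 286 and 334 CPM in CD11c+ against 396, 358 and 346 CPM in CD11c- libraries. Its fold change was -0.32 without replicate 2.

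Replicate 2 did not carry more of all members alike. Against the mean of replicates 1 and 3 it was at least 2-fold higher for 32 members, at most 0.5-fold for 21 and between these bounds for 29. Rpl37a was 37.3-fold higher, Rpl38 13.2-fold, Rpl36a 12.6-fold and Rps24 9.02-fold. Rps16, at 103 CPM against 389 and 491, was 0.235-fold, and Rpl10, at 178 CPM against 702 and 806, was 0.236-fold. Rplp0, a stalk protein and the most counted member in both other CD11c+ libraries, had 431 CPM against 872 and 966. Members of both subunits lay on both sides. Depth, a large number of detected genes and a high sum of neuron markers (93.5 CPM against 6.85 and 7.97) set this library apart too, and their part in the levels of the members was not tested.

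**Figure D2:**
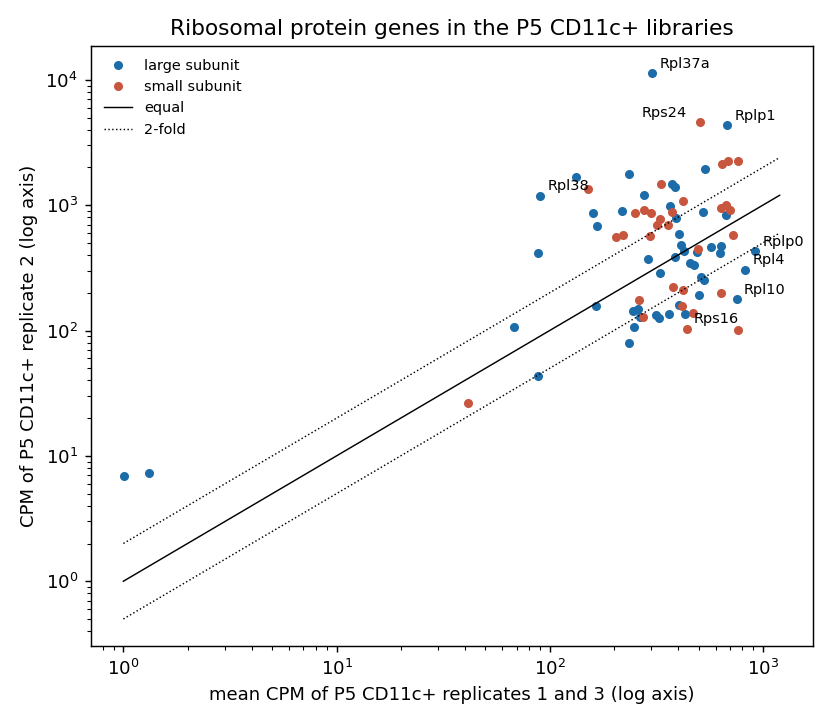
Level of each of the 82 members in P5 CD11c+ replicate 2 (y axis) against the mean of replicates 1 and 3 (x axis), both in CPM on log axes, blue for large and red for small subunit. The solid line marks equal levels and the dotted lines a 2-fold difference; 32 members lie on or above the upper and 21 on or below the lower line.

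Without replicate 2, 1 member was lower and 0 higher at P5, beside 4.42% of all genes lower and 5.06% higher. The one that fell was Rpl41, which encodes the shortest member at 25 amino acids. It stood at 215 and 256 CPM in CD11c+ libraries 1 and 3 and at 369, 345 and 355 CPM in the CD11c- libraries, without overlap. Its fold change was -0.77 (edgeR adjusted p = 0.0442). In CPM, 20 members were higher and 7 lower without overlap, beside 28.8% and 15.9% of all genes. The median fold change of the members was -0.09 and that of all genes -0.0040. Stalk proteins, which bring elongation factors to the ribosome, were split: Rplp2 had 266 and 288 CPM in CD11c+ against 352, 347 and 375 CPM in CD11c- cells (-0.55, adjusted p = 0.115), while Rplp0 had a fold change of 0.02 and Rplp1 of -0.18. Rpsa, which also serves as a laminin receptor, had 0.06, and none of these passed.

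At 9 months most ribosomal protein genes were lower in CD11c+ than in CD11c- cells. Of 81 members tested, 61 were lower and 0 higher, beside 18.2% of all genes lower and 14.8% higher. Rpl39l had too few counts to be tested. By subunit, 28 of 32 small-subunit and 33 of 49 large-subunit members were lower, with median log2 fold changes of -0.84 and -0.71. The median over all members was -0.74 and over all 15740 genes 0.02. How many members fell depended on the scaling between libraries. The fold changes use trimmed means of M-values (TMM), whose factors were 1.13 and 1.15 in CD11c+ and 0.934 and 0.825 in CD11c- libraries. With plain library totals instead, 18 members were lower and 1, Rpl3, was higher, beside 2062 and 4005 of 15740 genes. The median of all genes moved to 0.40. Scaled to 30 homeostatic microglial genes, 81 members were lower, beside 7442 of 15740 genes, and the median of all genes moved to -0.97. The members' median lay 0.76 below that of all genes under each of these scalings. A scaling moves all genes by nearly the same amount, so this gap could hardly change and is no separate check. Without CD11c+ replicate 1 the members' median was -0.63, and without CD11c- replicate 2 it was -0.54, beside -0.0049 and 0.07 over all genes. In a fit of all 10 libraries 0 passed, beside 4.49% of all genes lower, and 3 members were lower at an unadjusted p of 0.05. In CPM, 59 members were lower and 6 higher without overlap between the subsets, beside 23.7% and 49.4% of all genes tested.

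The same subsets differed in cell markers. In the 9-month CD11c- libraries, all 10 neutrophil and precursor, all 4 eosinophil and all 6 monocyte markers were higher than in CD11c+ cells, as were 16 of 18 genes of cycling cells. Eosinophil markers summed to 0.128 and 2.35 CPM in CD11c+ and to 1131 and 1208 CPM in CD11c- libraries, monocyte markers to 239 and 317 against 10576 and 12952 CPM, and cycling genes to 465 and 509 against 1189 and 1409 CPM. Of 30 homeostatic microglial genes, 25 were higher in CD11c+ cells and 3 lower. Border-associated macrophage markers summed to 1140 and 1278 CPM in CD11c+ against 429 and 473 CPM in CD11c- libraries. Of these 8 markers 7 were higher in CD11c+ cells and 1, F13a1, was lower (349 and 300 against 367 and 340 CPM). The part of these cells in the levels of the ribosomal protein genes was not tested.

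Among small-subunit proteins, Rps27a fell with the smallest p. It encodes ubiquitin fused to a ribosomal protein and had 132 and 151 CPM in CD11c+ against 273 and 291 CPM in CD11c- libraries. The fold change was -1.38 ± 0.16 (SE, adjusted p = 0.0012 in edgeR). Rps9, a protein of the mRNA entry site, had 368 and 370 against 581 and 561 CPM (-1.01 ± 0.14, adjusted p = 0.0021). Rpsa had 245 and 277 against 340 and 316 CPM (-0.71, adjusted p = 0.0098). In all 3 genes both CD11c+ libraries lay below both CD11c- libraries. Rps15a (-1.25), Rps21 (-1.17) and Rps26 (-1.10) had falls of similar size. Rps6, the target of S6 kinase in the mTOR pathway and a frequent reference gene, had 160 and 141 against 137 and 148 CPM. Its levels overlapped and its fold change of -0.30 did not pass (adjusted p = 0.22). Rps2 (-0.31), Rps4x (-0.40) and Rps3a1 (-0.42) were the other small-subunit members that did not pass.

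Among large-subunit proteins, Rpl28 had 52.7 and 58.8 CPM in CD11c+ against 105 and 87.8 CPM in CD11c- libraries (-1.16 ± 0.16, edgeR adjusted p = 0.0021). Rpl31, near the exit of the peptide tunnel, had 51.2 and 69.9 against 102 and 113 CPM (-1.21 ± 0.21, adjusted p = 0.0054). In the stalk, Rplp2 fell from 132 CPM in both CD11c- libraries to 96.3 and 98.8 CPM (-0.81, adjusted p = 0.0077). Rplp0 passed with a smaller fold change (-0.46, adjusted p = 0.036), although its CPM of 393 and 406 overlapped with 447 and 402. Rplp1 did not pass, at 115 and 136 against 117 and 125 CPM (-0.33, adjusted p = 0.19). The stalk proteins thus gave 3 different values, whose differences were not tested.

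The 6 members with CPM above the CD11c- libraries without overlap were all of the large subunit, beside 49.4% of all genes tested. Rpl3, which reaches into the catalytic centre, had 475 and 468 CPM in CD11c+ against 334 and 279 CPM in CD11c- libraries. After TMM its fold change was 0.25 ± 0.14 (edgeR adjusted p = 0.20), and by library totals 0.62 (adjusted p = 0.0243). Rpl4, whose loop lines the peptide tunnel, had 470 and 393 against 358 and 301 CPM (0.02, adjusted p = 0.94). Rpl13a, another common reference gene, had 30.7 and 30.1 against 27.2 and 21.4 CPM (-0.05, adjusted p = 0.88). With Rpl7l1, Rpl10 and Rpl10a these were the 6 members without overlap in the upward direction, and none passed the test after TMM. Rpl5, which binds the 5S ribosomal RNA, had 133 and 168 against 117 and 139 CPM and overlapped (-0.15).

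The divergent copies are set beside their parent genes. Rps27l, a p53 target in mammals, had 37.4 and 46.6 CPM in CD11c+ and 82.8 and 92.2 CPM in CD11c- libraries at 9 months (-1.44 ± 0.20, edgeR adjusted p = 0.0022). Its parent Rps27 had 178 and 238 against 246 and 317 CPM (-0.83, adjusted p = 0.031). Rpl3l, a copy of Rpl3 best known from muscle, was near the detection limit at 0.628 and 0.769 against 3.23 and 2.89 CPM (-2.50 ± 0.54, adjusted p = 0.013) and passed, which Rpl3 did not. Rpl22l1 had 60.5 and 62.5 against 64.8 and 66.7 CPM (-0.48, adjusted p = 0.070), and its parent Rpl22 had 35.4 and 38.3 against 52.5 and 42.6 CPM (-0.74, adjusted p = 0.018). Rpl7l1 (0.22, adjusted p = 0.37) and Rpl7 (-0.46, adjusted p = 0.055) did not pass. Rpl39l, a copy best known from testis, had 0.314 and 0.513 against 0.207 and 0.362 CPM, and Rpl39 fell by 1.14. The difference between a copy and its parent was not tested.

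**Figure D3:**
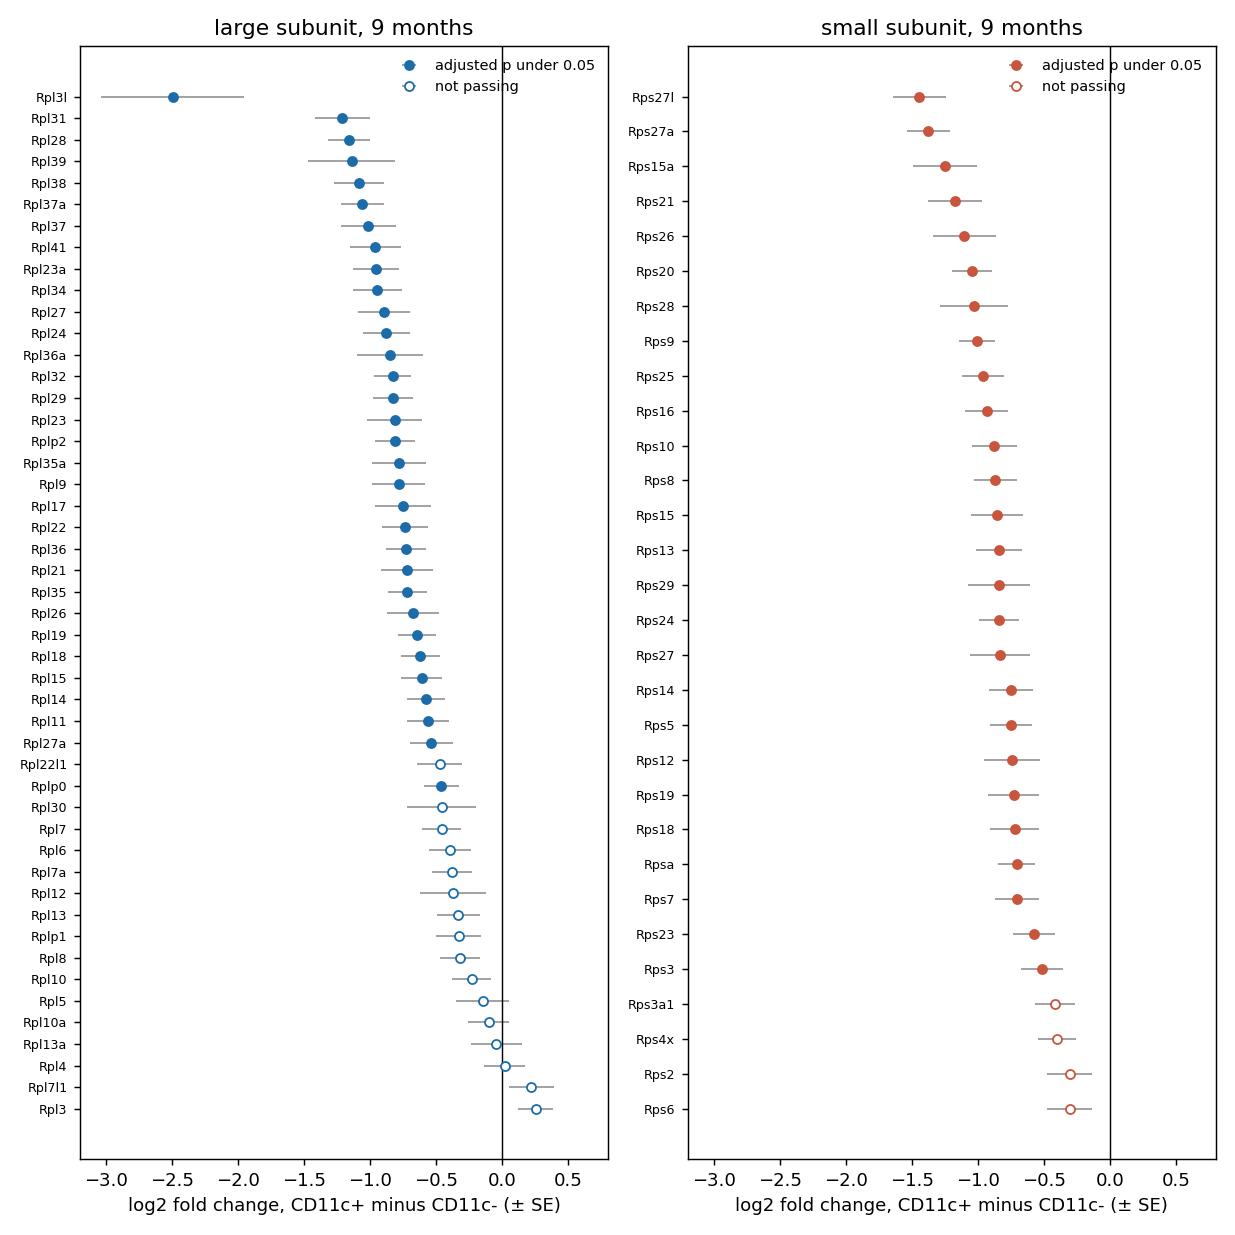
Fold change of 78 tested members at 9 months, log2 of CD11c+ over CD11c- with its SE, for 48 large-subunit (left) and 30 small-subunit members (right), sorted by value. Filled points had an edgeR adjusted p under 0.05 and open points did not; all 58 filled points lie below 0.

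More of the members with short proteins fell than of those with long ones. Among proteins of up to 100 amino acids all 10 tested members were lower (median -1.05), and among those of over 100 to 200 amino acids 43 of 47 (91.5%, median -0.79). Above 200 amino acids it was 8 of 24 (33.3%, median -0.39). Within the subunits, 4 of 16 large-subunit and 4 of 8 small-subunit members above 200 amino acids were lower, and all 24 shorter small-subunit members were lower. Summed over members of up to 200 amino acids, levels were 6696 and 7751 CPM in CD11c+ against 9393 and 10294 CPM in CD11c- libraries. Summed over longer ones they were 5032 and 4981 against 4996 and 4695 CPM. In these sums, which carry no TMM factors, the shorter members were lower without overlap, and those of the longer ones overlapped, while with TMM the median of the longer members was below 0.

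Across the 81 members the fold change and the protein length correlated at a Spearman rho of 0.64, and at 0.70 over 77 members without the divergent copies. These points share libraries and are given as a description. The length of the whole transcript gave 0.33. Other protein-coding genes showed the same order by length. They were lower in 49.6% of 282 genes of up to 100 amino acids (median -0.86), in 31.8% of 1420 genes of over 100 to 200 (median -0.34) and in 17.4% of 10648 longer genes (median 0.17), and over all 12350 rho was 0.15. At P5 without replicate 2, rho was 0.47 over 82 members and 0.03 over 12878 other genes, and the members' medians in the 3 classes were -0.24, -0.11 and 0.03. The part of RNA integrity or of library preparation in this order was not tested. Length classes were chosen after the fold changes were known.

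**Figure D4:**
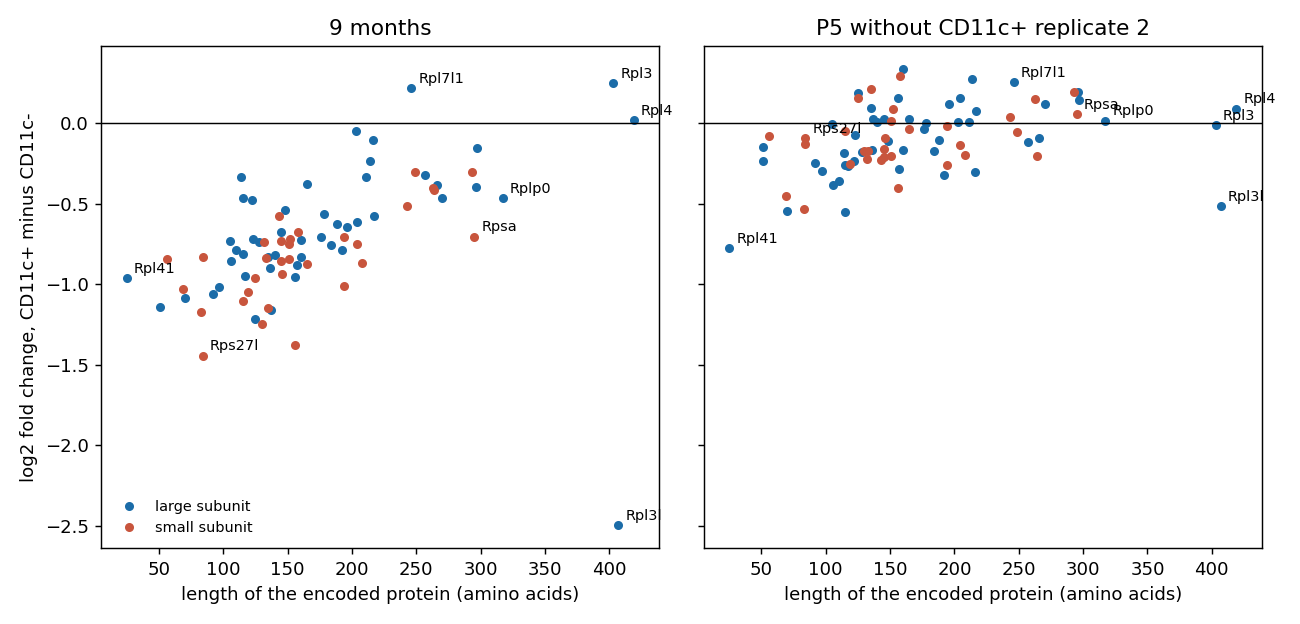
Fold change of each member (log2, CD11c+ over CD11c-) against the length of the encoded protein in amino acids, at 9 months (left, 81 members) and at P5 without CD11c+ replicate 2 (right, 82 members), blue for large and red for small subunit. At 9 months most proteins of up to 200 amino acids lie between -0.5 and -1.5, and Rpl3 and Rpl4 lie at the upper right; Rpl3l is the point at -2.50.

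The large-to-small ratio differed between length classes as well, which hold unlike numbers of genes (16 large- and 8 small-subunit members above 200 amino acids). For members above 200 amino acids it was 2.27 and 2.06 in 9-month CD11c+ against 1.85 and 1.68 in CD11c- libraries. For shorter members it was 1.20 and 1.17 against 1.10 and 1.09. CD11c+ libraries were above CD11c- libraries in both classes. Median protein length was 158.5 amino acids in the large and 148.5 in the small subunit.

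Of 4 ribosomal proteins that the naming rule misses, 3 were also lower in 9-month CD11c+ cells. Fau, a ubiquitin-like protein fused to a small-subunit protein, had 149 and 138 CPM in 9-month CD11c+ against 213 and 207 CPM in CD11c- libraries (-0.93, edgeR adjusted p = 0.0041). Rpl36al fell too (-0.75), and Rack1, a scaffold on the small subunit, did not pass (-0.33, adjusted p = 0.12). Of 78 mitochondrial ribosomal proteins, which serve the separate ribosome of that organelle, 19 were lower and 3 higher (median -0.35), beside 18.2% and 14.8% of all genes, and 4 and 0 in the fit of all 10 libraries. Mrpl33 had 37.6 and 40.3 against 211 and 271 CPM (-3.02 ± 0.22, adjusted p = 0.00014), and Mrps21 fell by 1.62 (adjusted p = 0.0013).

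The other translation lists did not share one direction. Of 217 genes tested over all of them, mitochondrial ribosomal proteins included, 14.7% were higher (32) and 17.5% lower (38) at 9 months, close to the 14.8% and 18.2% of all genes. When the spread was estimated over all 10 libraries, P5 CD11c+ replicate 2 among them, 4 were higher and 7 lower, beside 1.43% and 4.49% of all genes. Among 23 translation factors and other genes with TOP messages, 7 were lower and 1 higher at 9 months (median -0.10), and 2 and 0 in that fit. Eif3f had 12.3 and 14.4 CPM in CD11c+ against 34.2 and 58.2 CPM in CD11c- libraries (-2.20, edgeR adjusted p = 0.0031), Vim, an intermediate filament gene with a TOP message, fell by 2.72, and Eif4a2 rose by 0.51. None of 8 host genes of small nucleolar RNAs with TOP messages passed in edgeR, and the smallest adjusted p was 0.12, for Snhg5 (-0.41). Of 46 ribosome biogenesis genes, 19 were higher and 2 lower (median 0.56), and 4 and 1 in that fit. Nop2, an rRNA methyltransferase, had 83.9 and 72.2 against 23.0 and 18.9 CPM (1.52 ± 0.19, adjusted p = 0.0013). Grwd1 (1.59) and Heatr1 (1.22) rose, and Rrs1 fell by 2.56. Among 14 genes of RNA polymerase I, which makes ribosomal RNA, 3 were higher and 1 lower, and 0 in either direction in that fit. These counts also move with the scaling, as do those of all genes. By library totals 66 genes of the translation lists were higher and 21 lower, beside 4005 and 2062 of all 15740 genes. By homeostatic genes it was 0 and 160, beside 234 and 7442 of all genes. With TMM it was 32 and 38. The counts moved as well when a 9-month library was left out.

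Regulators of ribosomal protein synthesis went in both directions at 9 months, with 4 of 17 higher and 4 lower, beside 14.8% and 18.2% of all genes. In the fit of all 10 libraries none of 18 was called (0 higher, 0 lower). Eif4ebp1, the translation repressor that mTOR inactivates, had 58.6 and 59.3 CPM in CD11c+ against 129 and 116 CPM in CD11c- libraries (-1.43 ± 0.15, edgeR adjusted p = 0.00072). Rptor, the mTOR complex subunit raptor, had 129 and 111 against 43.7 and 31.1 CPM (1.32 ± 0.19, adjusted p = 0.0028). Mlst8, another subunit of that complex, had 21.4 and 14.3 against 53.4 and 33.7 CPM (-1.64, adjusted p = 0.0054). Larp4, which binds poly(A) tails, rose by 0.74. Subunits of this complex thus changed in opposite directions. Of 27 further initiation and elongation factors, 2 were higher and 2 lower.

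At P5 none of the translation lists had a gene that passed in edgeR with all 6 libraries. DESeq2 called 3 genes of these lists lower, beside 160 of 15410 genes. Without CD11c+ replicate 2, 5 of the 8 small nucleolar RNA host genes were lower in CD11c+ cells, beside 4.42% of all genes, among them Snhg8 (-0.96, edgeR adjusted p = 0.0174) and Gas5 (-0.90, adjusted p = 0.0294). The others were Taf1d, Snhg12 and Snhg5. Dkc1 of the biogenesis list and Eif2b4 were lower as well. No translation factor of the TOP list passed. All 13 mitochondrially encoded genes were lower in this comparison too. Markers of other cell types also differed there. All 8 border-associated macrophage markers were higher in CD11c+ cells, summing to 7894 and 7541 CPM against 262 to 413 CPM, and 9 of 10 neutrophil and precursor markers were lower, at 174 and 195 against 609 to 3055 CPM. The part of these cells in the P5 levels was not tested.

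The difference between the ages in the CD11c+ to CD11c- fold change passed the test for no member. With all 10 libraries, 0 of 82 members were called in either direction by edgeR, beside 0.302% of all genes higher and 1.56% lower at 9 months. At an unadjusted p of 0.05, 4 members were lower and 0 higher, namely Rps15a, Rps26, Rpl37a and Rps27a. DESeq2 called 3 members lower, beside 1655 of 19555 genes. These fits of all 10 libraries held replicate 2 of the P5 CD11c+ group. Without it, 7 members were lower and 0 higher, beside 10.3% and 8.76% of all genes. Among them were Rpl31 (-1.30), Rps27l (-1.25), Rpl28 (-1.08), Rpl29 (-1.06), Rps25 (-1.02) and Rpl23a (-1.01). The count of 7 in 82 lies under the share of all genes called lower. Rpl31, Rpl28, Rpl29 and Rpl23a were lower at 9 months in both subsets, and by more in CD11c+ cells: Rpl31 had log2 differences between ages of -2.42 in CD11c+ and -1.23 in CD11c- cells, and Rpl28 of -2.87 and -1.88. Rps27l and Rps25 had another pattern. Rps27l, at 39.0 and 44.0 CPM in P5 CD11c+ libraries 1 and 3 and 37.5 to 41.1 CPM in P5 CD11c- libraries, was near those levels in 9-month CD11c+ libraries (37.4 and 46.6 CPM) and above them in CD11c- libraries (82.8 and 92.2 CPM). Rps25 differed by -0.85 in CD11c+ and 0.058 in CD11c- cells. Positive values that did not pass were those of Rpl3 (0.39) and, in the fit of all 10 libraries, Rpl13a (0.48), Rpl4 (0.43) and Rpl7l1 (0.41). Without replicate 2, Rpl13a was at 0.06 and Rpl4 at 0.04. Members' P5 fold changes without replicate 2 and their 9-month fold changes, which share no library, correlated over 81 members at r = 0.42 and rho = 0.41, as a description.

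Set side by side without a test, 69 members had all 9-month libraries below all P5 libraries, leaving out P5 CD11c+ replicate 2, and 1 had them above. The share of all genes with such a gap was not counted, so these numbers cannot be read as particular to the members. The median log2 difference in CPM was -1.54 in CD11c+ and -1.18 in CD11c- cells. Rpl13a had the steepest difference, at 336 to 460 CPM at P5 against 21.4 to 30.7 CPM at 9 months. Rps12 had 576 to 728 against 62.1 to 95.9 CPM. Age and library preparation cannot be told apart in these values.

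**Figure D5:**
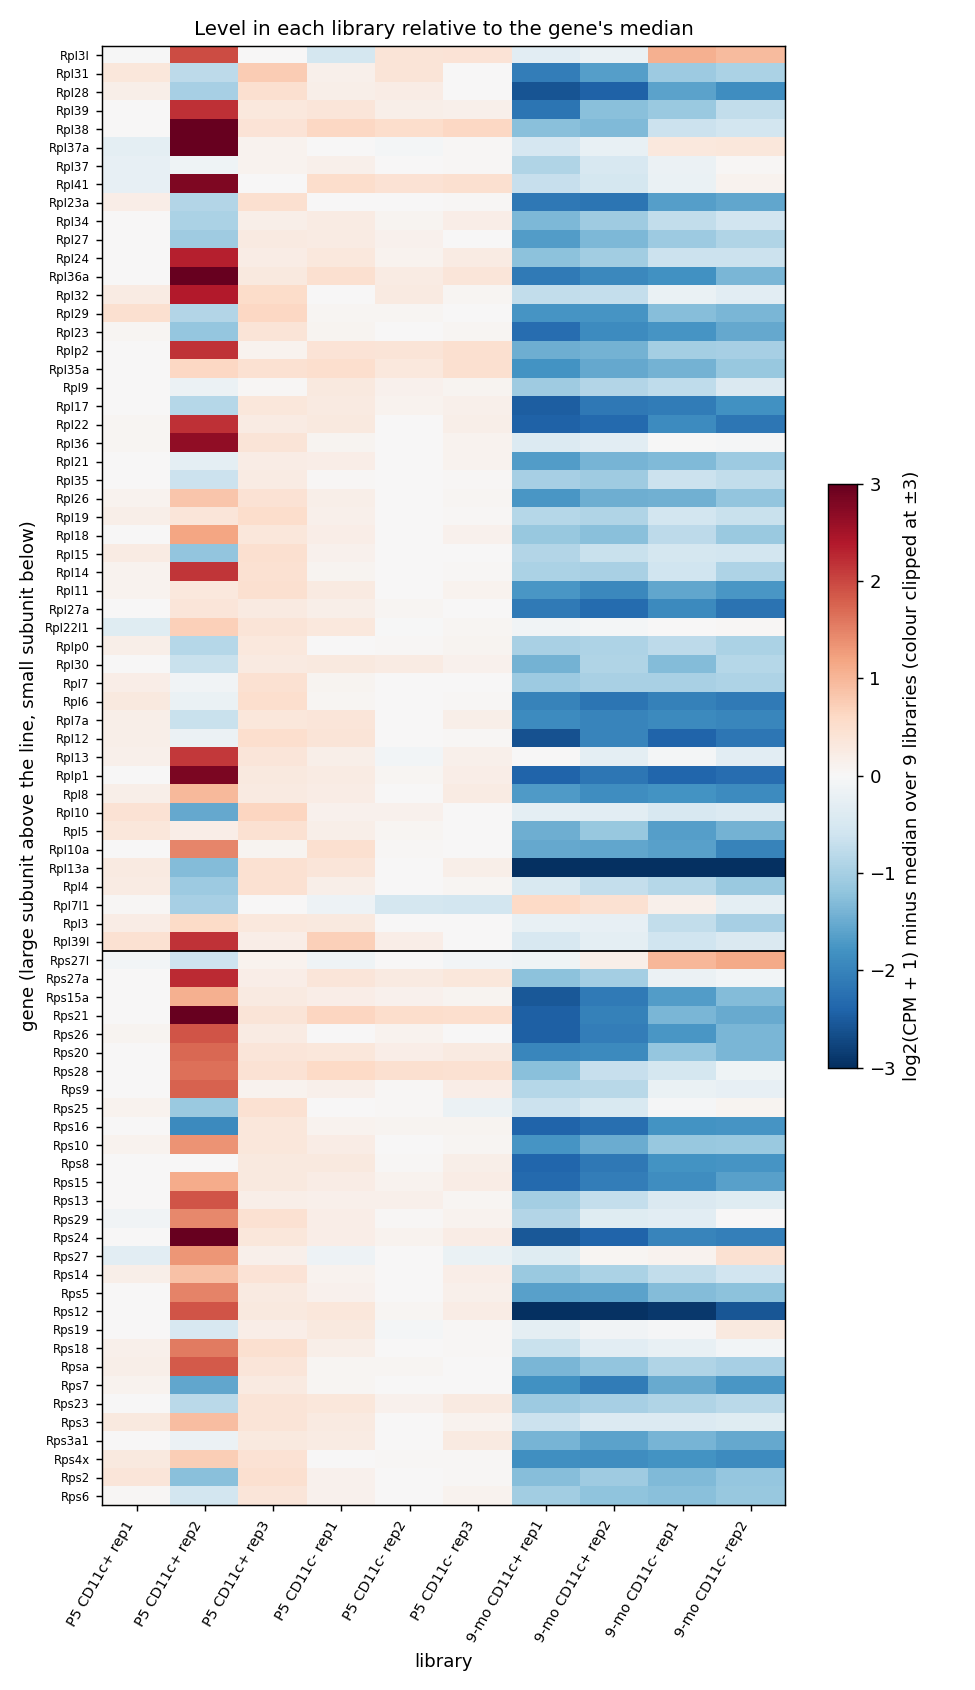
Level of 79 of the 82 members (rows) in each of the 10 libraries (columns), as log2(CPM + 1) minus the member's median over the 9 libraries other than P5 CD11c+ replicate 2; red is higher and blue lower. Rows are sorted within each subunit by the 9-month fold change, lowest at the top. The 9-month columns are blue for most rows, and P5 CD11c+ replicate 2 has rows of both colours.

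The genes outside the list that followed its summed level most closely over the 10 libraries, on log2(CPM + 1), were Fau (Pearson r = 0.993), the ribosomal protein pseudogene Rpl10a-ps1 (0.992), the predicted genes Gm9843 (0.993) and Gm12338 (0.992), and Ogfrl1 (0.992). Over the 9 libraries without replicate 2 they were Gm7536, Gm9794, Midn, Rps23-ps1 and Rps6-ps4, with r of 0.992 to 0.994. The values are led by the gap between P5 and 9 months, and such pseudogenes can share reads with members.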

How the data were processed

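The authors deposited raw counts per gene, as whole numbers, for 10 libraries. Per the submitters' processing notes, Trimmomatic 0.36, STAR 2.5.2b and Subread 1.5.2 were used. Genome build, strand setting and treatment of multiply mapped reads are not given in the sources used here, so overlapping genes and near-identical copies cannot be separated. Symbols came from GENCODE M21, protein lengths from its principal transcripts, and promoters from RefSeq (GRCm38.p6, 250 bases before to 50 after the start). Motif shares count 1 start per gene.

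The libraries of each age were fitted on their own in edgeR 4.0.16 (R 4.3.3; filterByExpr, TMM, quasi-likelihood F-test), adjusted by Benjamini-Hochberg over all genes tested. Adjusted p-values in the text are from this test, fold changes are log2, and CPM of single libraries are unscaled by TMM. The difference between ages was an interaction term over 10 libraries. DESeq2 1.42.0 and other scalings, filters and designs were alternatives. Members and lists were chosen with earlier results of these data known. Named members were the stalk proteins and Rpsa, divergent copies with their parents, the 4 smallest p per direction and comparison, the 3 highest and lowest per length in each subunit, Rps6 and Rpl13a. From the other lists up to 4 genes were taken per comparison. Others were named after their values were seen.

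On simulated counts with 200 changed genes, the P5 fit (15410 genes) recovered 0% of the genes changed 2-fold and 18% of those changed 4-fold. The shares were 54% and 99% without CD11c+ replicate 2 (15841 genes), 54% and 100% at 9 months (15740 genes), and 0% and 0% for the difference between ages (5% and 72% without that library). Unchanged genes called in error numbered 1 at P5, 13 at P5 without that library and 15 at 9 months. For the difference between ages they numbered 0, and 4 without that library. The changed genes were drawn only from well-counted genes, so recovery at low counts was not measured. No column was left unused (0). A few single genes are counted in the totals but not reported here by name or drawn in the plots that name every gene.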

Additional observations from a re-analysis of the deposited data

How the results depend on the processing

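Most members were called lower at 9 months with TMM (61), DESeq2 (62), its size factors (62), TMM without the members (61), homeostatic scaling (81) and no filter (59). These are no separate checks. The first 4 scale the libraries almost alike, with medians of all genes from 0.0015 to 0.022. Of the 30 homeostatic genes, 25 were themselves higher in CD11c+ cells, which moves all genes down. Of all genes, 2869 of 15740 were lower with TMM, 7442 of 15740 by homeostatic scaling and 3156 of 30075 without a filter. By library totals, a scaling chosen after seeing the data, 18 members were lower and 1 higher, beside 2062 and 4005 of 15740 genes. In 1 fit of all 10 libraries 0 members were lower, beside 4.49% of all genes. That fit shares its spread with P5 CD11c+ replicate 2. Leaving out 1 library at a time gave 32 to 56, with 32 without 9-month CD11c+ replicate 1 and 35 without CD11c- replicate 2; a lone library is then assumed to vary like the other group. In these 9-month fits the median fold change was -0.88 to -0.54 over the members and -0.035 to 0.071 over all genes. At P5, leaving out libraries gave 0 to 1 lower. The 1 was without CD11c+ replicate 2, beside 4.42% of all genes. With any other P5 library left out no gene of any kind was called, so a count of 0 members there is not particular to them. For the difference between ages, lower calls numbered 51 by homeostatic scaling, beside 4673 of 19555 genes. They numbered 3 with DESeq2 (1655 of 19555 genes) and 1 without a filter (554 of 37003 genes). With a P5 library left out they were 0 to 7, of which the 7 stood beside 10.3% of all genes.

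In the other translation lists, lower calls at P5 were 3 with DESeq2, beside 160 of 15410 genes, and 0 to 7 with a library left out. Among these P5 fits, only the one without CD11c+ replicate 2 called any gene at all. At 9 months, higher and lower calls were 0 and 160 by homeostatic scaling 66 and 21 by library totals and 4 and 7 in the fit of all 10 libraries (added for these lists after seeing the data), and 17 to 36 were higher with a library left out. The mean P5 CD11c- share without mitochondrial genes was 3.70%, beside 3.03%, 6.93% and 3.61% in the P5 CD11c+ libraries.

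Signs turned without CD11c+ replicate 2 at P5 for Rpl37a (-0.24 to 3.82 over the left-out libraries), Rps24 (-0.17 to 1.99), Rpl36a (-0.38 to 2.20) and Rpl36 (-0.0050 to 1.53). By homeostatic scaling Rpl9 (0.31), Rpl30 (0.11), Rpl34 (0.023) and Rps23 (0.079) turned at P5, Rpl3 (-0.74), Rpl7l1 (-0.78) and Rpl4 (-0.98) at 9 months, and Rpl3 (-1.64), Rpl7l1 (-1.35), Rpl13a (-1.16) and Rpl4 (-1.24) in the difference between ages. By library totals Rplp1 (0.053), Rpl13a (0.32) and Rps6 (0.078) turned at 9 months. Rpl4 was -0.0014 with DESeq2 or its size factors, and Rpl13a 0.016 without a filter and 0.084 in the fit of all libraries. With a 9-month library left out, Rpl4 ranged from -0.079 to 0.19 and Rpl13a from -0.065 to 0.041. Apart from replicate 2, whose effect is shown by leaving it out, the cause was not tested.

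Deviations of same-numbered samples correlated at 0.46, 0.11 and -0.41 at P5 and at 0.08 at 9 months. With so few libraries per group these deviations depend on each other, so they cannot decide whether samples of a number pair. With the replicate block 65 members were lower at 9 months, beside 2946 of 15740 genes. At P5 and between ages that design called 0 members, but also 0 of all 15410 and 19555 genes.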
